A study of Mus musculus with 16 samples.

Results

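A set of 10 genes that mark steps of the cell division cycle were followed in mouse kidney after injury and under an inhibitor of poly(ADP-ribose) polymerases (PARP), the enzymes that attach ADP-ribose chains to proteins at DNA breaks. They were taken by symbol, with earlier results of these data known, from the 40472 genes of the deposited count table: the D-type cyclins Ccnd1 and Ccnd2 for entry into the cycle (G1), Mcm2, Mcm3, Mcm5, Mcm6 and Pcna for DNA replication, and Ccnb1, Top2a and Mki67 for mitosis and chromosome condensation. All 10 were found and all 10 passed the filter on low counts, which kept 13614 genes for testing. Whole-kidney poly(A) RNA was sequenced from 4 groups of 4 libraries, all from male C57BL/6 mice aged 12 weeks. NV mice had no injury and received vehicle, NP mice had no injury and received the PARP inhibitor PJ34, IRV mice underwent ischemia reperfusion (IR) surgery, a temporary stop of the renal blood supply, and received vehicle, and IRP mice underwent the same surgery and received PJ34. The day of tissue collection, the PJ34 dose and whether each library is a separate animal are not stated in the labels, and the p-values therefore reflect library-to-library spread, which may be technical.

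D-type cyclins bind Cdk4 and Cdk6 in response to growth signals, and the complexes release E2F transcription factors from the retinoblastoma protein. E2F factors then switch on genes of DNA replication, among them the subunits of the MCM helicase, which opens the double helix ahead of the polymerases, and Pcna, the ring that holds the polymerases on DNA. Genes used later, in G2 and mitosis, are held off in resting cells by the DREAM complex and turned on through CCAAT boxes and the element called CHR. The epithelium of the kidney tubule divides rarely at rest and is known to divide after ischemic injury, and immune cells and fibroblasts in an injured kidney can divide too.

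After ischemia reperfusion, both injured groups had more RNA of the late markers Mki67 and Top2a, of Pcna and of the cyclin Ccnd2 than the uninjured group with the same treatment. Mcm3 was called higher in both as well, but it passed the filter on low counts through the injured libraries and had to differ. Mki67 was 2.76-fold higher in IRV than in NV and 2.95-fold higher in IRP than in NP. Ccnd1 went the other way in vehicle mice, at 0.608 of the NV level in IRV. Mcm2 passed the test in PJ34 mice and missed it in vehicle mice, and the difference between treatments itself did not pass (interaction 0.32 ± 0.37 (SE) on the log2 scale, adjusted p = 0.87). Mcm5, Mcm6 and Ccnb1 passed it in neither comparison, and no member passed the test between PJ34 and vehicle. The libraries also differed in depth between groups, as given below. With the depth set as a term in the fit, the rise of Mki67 was called under both treatments. That of Top2a was then called in vehicle mice only, and those of Pcna and Ccnd2 under neither treatment.

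In IRV against NV, 5 of the 10 genes rose and 1 fell at an adjusted p under 0.05 (edgeR's quasi-likelihood test, Benjamini-Hochberg adjustment over all genes tested), against 15.9% of all tested genes called higher, 11.1% called lower and 27% called in either direction. The median log2 difference was 0.65 over the 10 genes and -0.03 over all tested genes. In IRP against NP, 6 of 10 rose and 0 fell, where 19.6% of all tested genes were called higher, 24% lower and 43.6% in either direction. The median there was 0.80 over the 10 genes and -0.01 over all tested genes. The libraries of IRV and NV did not overlap for Ccnd1, Ccnd2, Mcm3, Pcna, Top2a and Mki67, which is 6 of 10 against 26.9% of tested genes. The libraries of IRP and NP did not overlap for Ccnd2 and Mki67, which is 2 of 10 against 40.8% of tested genes. Mcm3, one of the genes counted as risen in both, passed the filter on low counts through its high level in injured libraries and had to differ. For the other called genes at least 5 of the 8 uninjured libraries reached that cutoff.

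**Figure D1:**
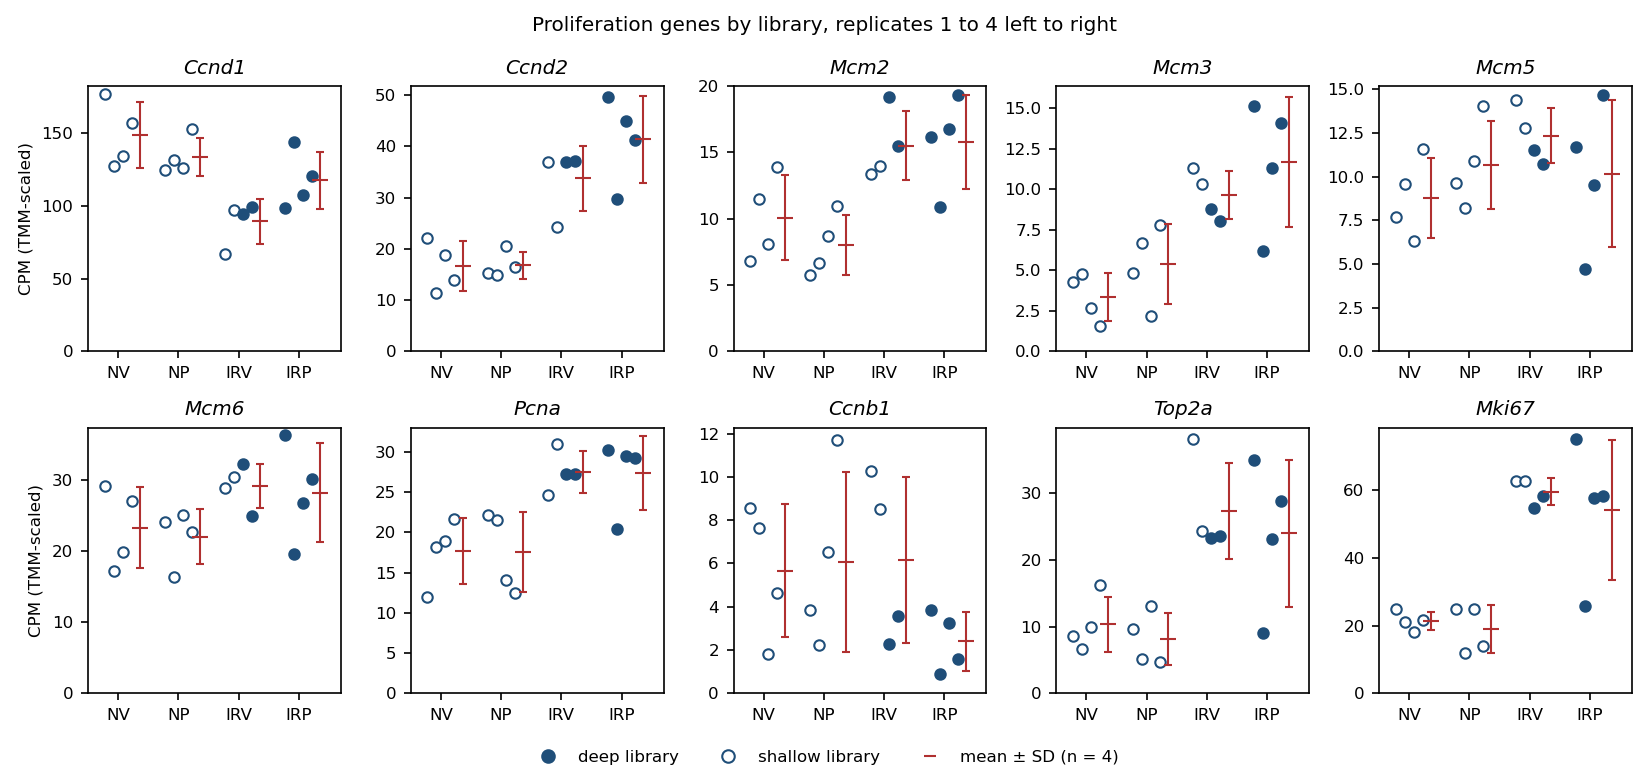
CPM (counts scaled to library size by the TMM method) of the 10 genes in each of the 16 libraries, by group, filled for deep and open for shallow libraries, with the mean and SD of the 4 libraries in red. For Mki67 the 8 uninjured libraries lie between 11.9 and 25.0 and the 8 injured ones between 25.7 and 75.2, with IRP replicate 2 the lowest of the injured.

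The libraries fell into separate sets by depth, and the sets are not spread evenly over the groups. The deep set, with 4963638 to 6169748 counts each, consisted of IRP replicates 1 to 4 plus IRV replicates 3 and 4. The shallow set of 10, among them every uninjured library, had 973812 to 1659983. The shallow libraries also carried more signal from olfactory, vomeronasal, taste and trace-amine receptor genes, most of which are known from sensory tissue: these 1909 genes summed to 6439 to 11377 CPM in the shallow set and 246 to 519 CPM in the deep set. IRP against NP therefore compares deep with shallow libraries throughout, and in that comparison set and injury cannot be told apart except by way of IRV, the one group with libraries of both kinds. The 90th percentile of the receptor genes ran from 7.29 to 12.4 CPM in shallow libraries. Of the 8 uninjured libraries, Mcm3 lay at or under this level of the same library in 8, Ccnb1 in 7, Mcm2 in 6, Top2a in 6, Mcm5 in 5 and Ccnd2 in 1, while Ccnd1, Mcm6, Pcna and Mki67 lay above it in all 8. In the 6 deep libraries every member lay above it. Across all 16 libraries, every deep one was below every shallow one for 13% of tested genes and above for 4.11%. Each held for 0 of the 10 members, which for so few genes is near those shares and not a result about them. With the library set as a term in the fit, 3 members rose and Ccnd1 fell in IRV against NV. The 3 were Top2a, Mki67 and Mcm3, the last kept by the filter on low counts through the injured libraries. In IRP against NP 1 member rose (Mki67). In that fit 7.93% of tested genes were called higher and 6.13% lower in the first comparison, and 2.52% and 0.786% in the other. Markers of the labelled tissue were present: 10 proximal tubule genes summed to 16384 to 22004 CPM in the uninjured libraries.

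Ccnd1, highest of the 10 in CPM, which are not corrected for gene length, encodes the cyclin that many cells induce first on growth signals. It was measured at 177, 127, 134 and 157 CPM in NV replicates 1 to 4, and at 66.8, 97.2, 94.1 and 99.5 CPM in the IRV replicates. All 4 IRV libraries lay under all 4 NV libraries. The difference was -0.72 ± 0.15 (SE) on the log2 scale, 1.64-fold lower, with an adjusted p of 0.0021 (edgeR), and it was called without each library in turn. With PJ34 the picture was less separate: NP held 125, 132, 126 and 153 CPM, and IRP held 98.4, 144, 108 and 121 CPM. These groups overlapped through IRP replicate 2, the highest IRP library, and the log2 difference of -0.19 ± 0.15 did not pass (adjusted p = 0.31, edgeR). Without IRP replicate 2 it was -0.39 ± 0.15 with an adjusted p of 0.044. The injury difference in PJ34 mice minus that in vehicle mice was 0.53 on the log2 scale, with a 95% interval of 0.09 to 0.97, an unadjusted p of 0.022 and an adjusted p of 0.36, so it was not called. The fall of Ccnd1 in IRV was as large with the library set as a term (-0.84 ± 0.19, adjusted p = 0.0068) and among shallow libraries alone (-0.84 ± 0.20, adjusted p = 0.011). Without the filter on low counts it was -0.41 (adjusted p = 0.18). It depends on the scaling as well: with library totals in place of TMM it was -0.21 (adjusted p = 0.36), where the median of all tested genes moved to 0.49, so that Ccnd1 lay at -0.70 relative to that median. In PJ34 mice that scaling turned the sign, to 0.37 (adjusted p = 0.078).

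Ccnd2, another D-type cyclin with the same kinase partners, moved opposite to Ccnd1 in vehicle mice. NV held 22.2, 11.5, 18.9 and 13.9 CPM and IRV held 37.005, 24.3, 36.9 and 37.1 CPM. NP held 15.4, 14.9, 20.7 and 16.4 CPM and IRP held 49.7, 29.7, 44.9 and 41.2 CPM. Every injured library was above every uninjured library of the same treatment, and the lowest library of each injured group was replicate 2. The log2 difference was 1.04 ± 0.22 in vehicle mice (adjusted p = 0.0022) and 1.31 ± 0.21 in PJ34 mice (adjusted p = 0.00024, edgeR). Both calls held without each library in turn. With the library set as a term the values were 0.83 ± 0.28 (adjusted p = 0.056) and 1.00 ± 0.34 (adjusted p = 0.12), so neither passed. As sums per library, the pair of cyclins came to 139 to 199 CPM in NV and 104 to 137 CPM in IRV, since Ccnd1 makes up most of the sum.

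The replication genes carry known control elements, and 4 promoters are printed, 2 here and 2 with the late genes, because they show the elements named in the background in members that did and did not pass the test. The 8 members with an entry in the RefSeq promoter table (GRCm38.p6) were searched from 250 bases before to 50 after the start site, on both strands. E2F words (TTTGGCGC, TTTCCCGC, TTTCGCGC or TTTGCCGC) were found in 3 of 8, Mcm3, Mcm5 and Mcm6, against 2.26% of the 32851 promoter windows in the table. The 250 bases before the start of Mcm5, chr8:75109259-75109508 (plus strand), and of Mcm6, chr1:128359706-128359955 (minus strand), read 5′ to 3′ with E2F words and CCAAT boxes (CCAAT or its complement ATTGG) in capitals:
Mcm5: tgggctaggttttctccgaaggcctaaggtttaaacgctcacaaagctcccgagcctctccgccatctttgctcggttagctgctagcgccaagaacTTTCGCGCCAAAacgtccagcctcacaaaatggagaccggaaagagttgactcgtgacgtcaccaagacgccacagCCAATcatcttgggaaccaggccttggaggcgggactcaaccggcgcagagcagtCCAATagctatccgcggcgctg
Mcm6: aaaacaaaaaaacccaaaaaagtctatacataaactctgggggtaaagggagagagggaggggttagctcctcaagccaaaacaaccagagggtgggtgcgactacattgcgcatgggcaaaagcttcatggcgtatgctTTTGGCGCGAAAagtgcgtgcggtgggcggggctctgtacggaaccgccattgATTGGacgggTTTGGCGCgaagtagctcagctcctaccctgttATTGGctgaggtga
In Mcm5 an E2F word on each strand overlaps its neighbour 149 to 153 bases before the start. Mcm6 has such an overlapping pair at 106 and 110 bases and a further word at 47 bases. The E2F words of Mcm3 lie 20 and 39 bases after its start site. None of the 4 words was found in the windows of Mcm2 or Pcna.

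Mcm3, a subunit of the helicase ring, was measured at 4.27, 4.78, 2.70 and 1.54 CPM in NV and at 11.3, 10.3, 8.80 and 8.06 CPM in IRV. These groups did not overlap, and the log2 difference was 1.50 ± 0.42 (adjusted p = 0.013, edgeR). Mcm3 passed the filter on low counts through the injured libraries: 8 of 8 injured and 1 of 8 uninjured libraries reached its cutoff of 6.29 CPM (before TMM scaling). A gene kept in this way had to differ, so its calls are a description and support nothing further. The NV values rest on 2 to 5 counts per library, and the call was lost without NV replicate 4 (1.18, adjusted p = 0.060). NP held 4.80, 6.69, 2.17 and 7.81 CPM and IRP held 15.1, 6.16, 11.3 and 14.1 CPM. Here IRP replicate 2 lay within the range of NP. The log2 difference of 1.07 ± 0.36 passed (adjusted p = 0.024) but was lost when any of NP replicates 1 and 3 or IRP replicates 1, 3 and 4 was left out, with adjusted p-values of 0.058 to 0.098.

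Mcm2, another subunit of the ring, was measured at 6.84, 11.5, 8.10 and 13.9 CPM in NV and 13.4, 14.0, 19.2 and 15.5 CPM in IRV. NV replicate 4 overlapped the IRV range, and the log2 difference of 0.65 ± 0.26 did not pass (adjusted p = 0.073). Without NV replicate 4 it was 0.79 and passed narrowly (adjusted p = 0.0499). NP held 5.77, 6.69, 8.70 and 10.9 CPM and IRP held 16.2, 10.9, 16.7 and 19.3 CPM. The highest NP library and IRP replicate 2 met at 10.9 CPM, and the other 3 IRP libraries lay above all of NP. The log2 difference of 0.97 ± 0.26 passed (adjusted p = 0.0067, edgeR), and did so without each library in turn. With the library set as a term it was 0.64 ± 0.43 (adjusted p = 0.47).

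Mcm5 and Mcm6, both with E2F words in capitals in the printed promoters, were not called. Mcm5 held 6.30 to 11.6 CPM in NV, 10.7 to 14.4 in IRV, 8.18 to 14.1 in NP and 4.71 to 14.7 in IRP, whose lowest library was replicate 2. Its log2 difference was 0.44 ± 0.33 in vehicle mice (adjusted p = 0.32) and -0.07 ± 0.31 in PJ34 mice (adjusted p = 0.88), with 95% intervals of -0.25 to 1.13 and -0.72 to 0.59. Mcm6, a further subunit of the ring as is Mcm5, held 17.2 to 29.1 CPM in NV, 24.9 to 32.2 in IRV, 16.4 to 25.0 in NP and 19.6 to 36.2 in IRP. All 4 groups overlapped. Its log2 difference was 0.31 (95% interval -0.14 to 0.75) in vehicle mice and 0.37 (-0.06 to 0.81) in PJ34 mice, so a rise of the size fitted for Mki67 in vehicle mice lies outside both intervals.

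Pcna, the sliding ring of the polymerases, was measured at 12.0, 18.2, 18.9 and 21.6 CPM in NV and at 24.7, 31.0, 27.3 and 27.2 CPM in IRV. NP held 22.1, 21.6, 14.1 and 12.5 CPM and IRP held 30.2, 20.5, 29.5 and 29.2 CPM. The vehicle groups did not overlap, while IRP replicate 2 lay within the range of NP. The log2 difference was 0.64 ± 0.20 in vehicle mice (adjusted p = 0.028) and 0.64 ± 0.20 in PJ34 mice (adjusted p = 0.016, edgeR). Leaving out 1 library ended the call in 6 of 8 cases in vehicle mice (NV replicates 1, 2 and 3, IRV replicates 2, 3 and 4) and in 4 of 8 in PJ34 mice (NP replicates 3 and 4, IRP replicates 3 and 4), with a lowest log2 value of 0.42. With the library set as a term Pcna was called under neither treatment. Pcna has processed pseudogene copies in the table, and reads shared with them could be split.

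The 5 replication members summed to 55.8 to 75.7 CPM per library in NV, 59.5 to 67.9 in NP, 86.5 to 99.0 in IRV and 61.8 to 109 in IRP. The sums of IRV stood clear of those of NV. Among the IRP libraries only replicate 2, at 61.8 CPM, fell inside the range of NP.

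**Figure D2:**
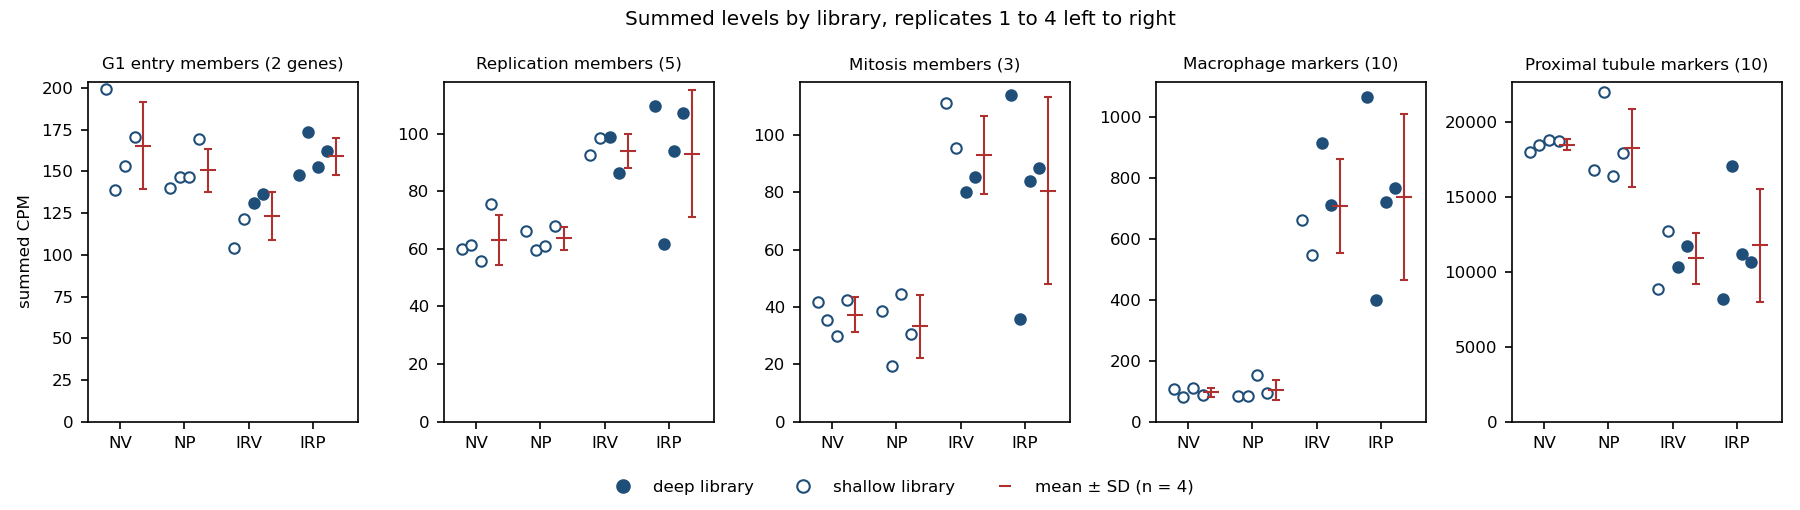
Summed CPM per library of the members with a role in G1 entry (Ccnd1, Ccnd2), replication (Mcm2, Mcm3, Mcm5, Mcm6, Pcna) and mitosis (Ccnb1, Top2a, Mki67), and of 10 macrophage and 10 proximal tubule markers, by group, each point a library (filled deep, open shallow) with the mean and SD in red. The mitosis sum is 29.7 to 42.5 CPM in NV and 80.2 to 111 CPM in IRV, and IRP replicate 2 lies at 35.7 CPM while the other IRP libraries lie at 84.0 to 114 CPM.

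The same windows were searched for the elements of late genes. CHR words (TTTGAA or TTCGAA, either strand) were found in 3 of the 8 windows, Mcm2, Top2a and Mki67, against 19.2% of all windows, and CCAAT in 8 of 8 against 37.4%. The 250 bases before the start of Top2a, chr11:99024190-99024439 (minus strand), and of Mki67, chr7:135716380-135716629 (minus strand), are shown because these are the late members that were called; CCAAT boxes and CHR words on either strand are in capitals:
Top2a: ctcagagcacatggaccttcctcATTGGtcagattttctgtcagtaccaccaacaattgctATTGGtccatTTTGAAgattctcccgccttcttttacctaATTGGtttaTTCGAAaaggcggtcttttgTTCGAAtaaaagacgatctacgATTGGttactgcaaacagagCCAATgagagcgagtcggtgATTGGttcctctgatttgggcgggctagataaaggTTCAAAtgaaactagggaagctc
Mki67: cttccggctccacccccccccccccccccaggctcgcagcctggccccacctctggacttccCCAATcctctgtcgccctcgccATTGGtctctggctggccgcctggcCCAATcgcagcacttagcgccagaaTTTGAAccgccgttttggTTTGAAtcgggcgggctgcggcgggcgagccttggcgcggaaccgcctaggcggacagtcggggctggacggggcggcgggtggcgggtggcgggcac
Top2a has 6 CCAAT boxes and 4 CHR words in this stretch and Mki67 has 3 and 2. Ccnb1 has 2 CCAAT boxes and no match to these CHR words in its window. A match describes letters in a window and is not a measured binding site, and its relation to the calls was not tested.

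Mki67 encodes a protein that coats mitotic chromosomes and is the common histological marker of cycling cells. It was measured at 24.8, 21.0, 18.0 and 21.6 CPM in NV and at 62.7, 62.6, 54.7 and 58.3 CPM in IRV. NP held 25.0, 11.9, 25.0 and 14.1 CPM and IRP held 75.2, 25.7, 57.7 and 58.3 CPM. Injured and uninjured libraries did not overlap under either treatment, with IRP replicate 2 just above the highest NP libraries. The log2 difference was 1.46 ± 0.29 in vehicle mice (adjusted p = 0.0013) and 1.56 ± 0.29 in PJ34 mice (adjusted p = 0.00056, edgeR). Both calls held without each library in turn and with the library set as a term, at 1.55 ± 0.35 (adjusted p = 0.0068) and 1.72 ± 0.45 (adjusted p = 0.040). Among shallow libraries alone, with 2 of IRV and 4 of NV, the difference was 1.53 ± 0.20 (adjusted p = 0.00013).

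Top2a encodes the topoisomerase that untangles replicated chromosomes. NV held 8.55, 6.69, 9.90 and 16.2 CPM and IRV held 38.03, 24.3, 23.3 and 23.5 CPM. NP held 9.61, 5.21, 13.0 and 4.69 CPM and IRP held 34.9, 9.06, 23.1 and 28.7 CPM. The vehicle groups did not overlap, with IRV replicate 1 the highest library of all, while IRP replicate 2 lay among the NP libraries. The log2 difference was 1.32 ± 0.40 in vehicle mice (adjusted p = 0.023) and 1.63 ± 0.42 in PJ34 mice (adjusted p = 0.0048, edgeR). Leaving out NV replicate 1, 2 or 3 ended the first call, with values of 1.16 to 1.22 and adjusted p-values of 0.066 to 0.075, and no single library ended the other. With the library set as a term Top2a was called in vehicle mice but not in PJ34 mice.

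Ccnb1, the cyclin that drives entry into mitosis with Cdk1, was not called, unlike Mki67 and Top2a. Its low counts leave wide intervals, so a difference from those genes is not shown. It was measured at 8.55, 7.65, 1.80 and 4.63 CPM in NV, on 2 to 10 counts, and at 10.3, 8.51, 2.27 and 3.58 CPM in IRV. NP held 3.84, 2.23, 6.52 and 11.7 CPM and IRP held 3.87, 0.91, 3.23 and 1.60 CPM. The log2 difference was -0.01 ± 0.60 in vehicle mice (adjusted p = 1.00) and -1.31 ± 0.66 in PJ34 mice (adjusted p = 0.12, edgeR). The values moved with the library set: the 2 shallow IRV libraries averaged 9.39 CPM and the 2 deep ones 2.93 CPM. With the set as a term the differences were 0.71 ± 0.65 (adjusted p = 0.55) and 0.35 ± 0.85 (adjusted p = 0.88), so that the sign in PJ34 mice turned. A pseudogene of Ccnb1 is also in the table, and the part that shared reads and the receptor-level background play in these low values was not tested.

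**Figure D3:**
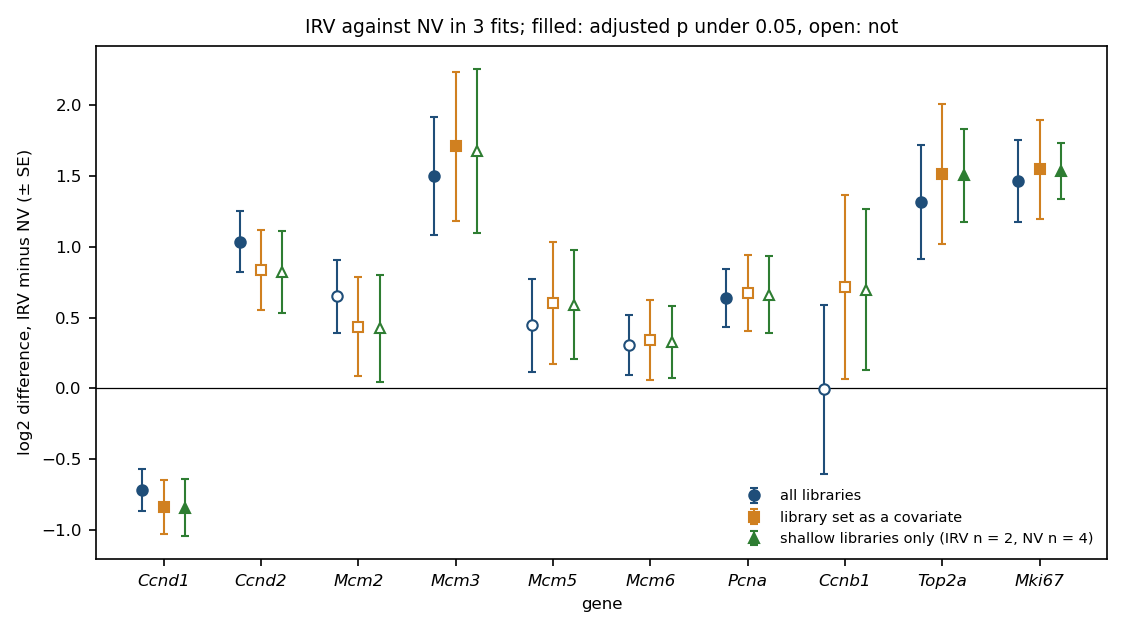
Log2 difference between IRV and NV for the 10 genes, with bars of ± 1 SE, fitted on all libraries, with the library set as a term, and among shallow libraries only. Top2a, Mki67 and Ccnd1 keep an adjusted p under 0.05 in all 3 fits, and Ccnb1 moves from -0.01 to 0.71 and 0.70.

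PJ34 against vehicle left 0 of 10 members called in injured mice (IRP against IRV) and 0 of 10 in uninjured mice (NP against NV), where 0% of the 13614 tested genes were called by edgeR's quasi-likelihood test in either comparison. At an unadjusted p under 0.05 there were 1832 genes in the first, or 13.5%, and 501 in the second, or 3.68%, among them 1 and 0 members. DESeq2 called 0 members in both. Over all genes it called 5 higher and 1277 lower in injured mice, and 3 higher and 1 lower in uninjured mice. All IRP libraries are deep and IRV has both kinds, so PJ34 and the library set are mixed in the injured comparison. There edgeR called 0 genes among deep libraries alone and 0 with the set as a term. Without IRV replicate 3 or 4, both deep, it called 1451 and 1447 genes lower. DESeq2 was run on all libraries only. The 1 member at an unadjusted p under 0.05 was Ccnd1, higher in IRP than in IRV by 0.38 (95% interval 0.07 to 0.68, unadjusted p = 0.018, adjusted p = 0.19, edgeR). For Mki67 the log2 difference of IRP from IRV was -0.12 (-0.62 to 0.38), for Top2a -0.12 (-0.80 to 0.55), for Pcna -0.01 (-0.37 to 0.35) and for Mcm6 -0.04 (-0.42 to 0.34). The remaining intervals were -0.09 to 0.65 for Ccnd2, -0.46 to 0.44 for Mcm2, -0.33 to 0.98 for Mcm3, -0.82 to 0.35 for Mcm5 and -2.54 to 0.14 for Ccnb1. Each reaches 0, and these widths leave room for differences either way. No member's libraries were separate between IRP and IRV or between NP and NV, against 3.42% and 2.43% of tested genes.

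The interaction, which asks whether the injury difference itself depended on PJ34, called 0 of 10 members and 0% of tested genes with edgeR. At an unadjusted p under 0.05 it held 1550 genes, or 11.4%, and 1 member, Ccnd1. DESeq2 called 0 members, with 1 gene higher and 21 lower. In uninjured kidneys the largest member difference between PJ34 and vehicle was that of Mcm3, 0.76 (95% interval -0.24 to 1.75, adjusted p = 1.00), on 2 to 10 counts per library.

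**Figure D4:**
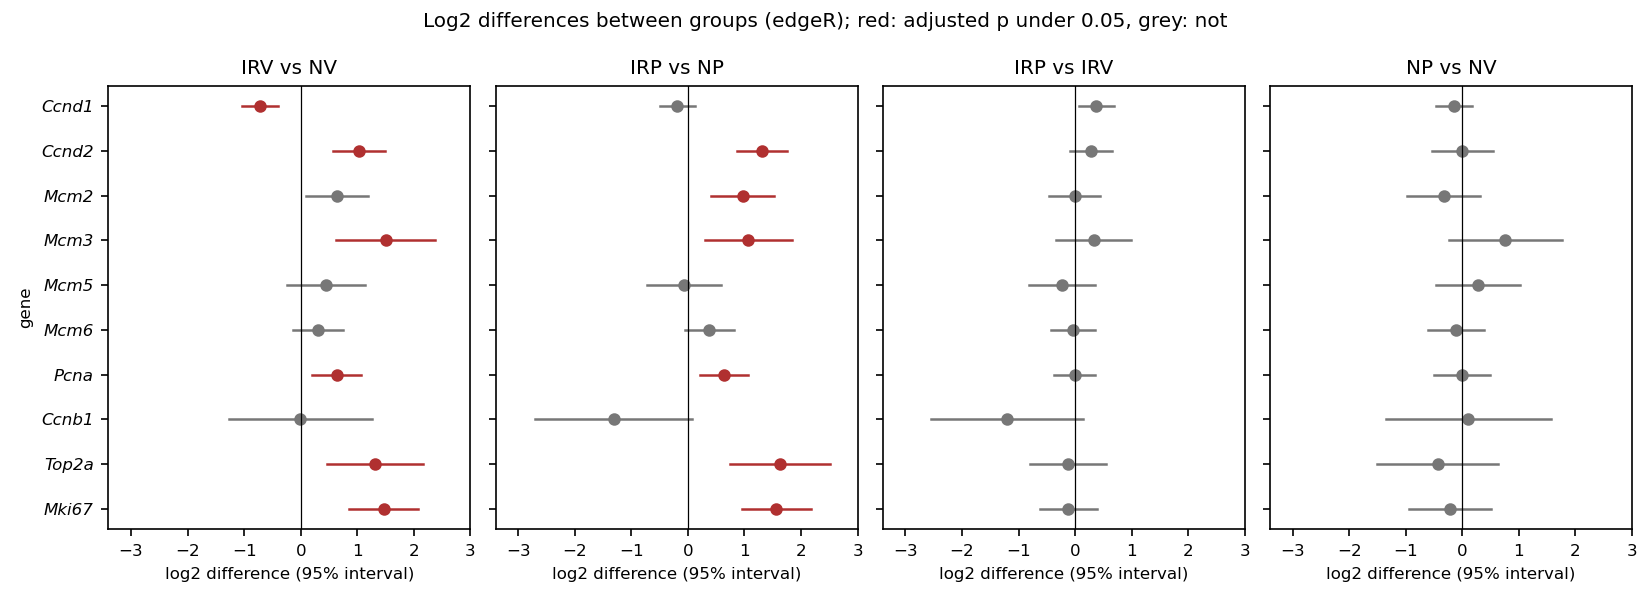
Log2 differences with 95% intervals for the 10 genes in 4 comparisons, red where the adjusted p is under 0.05. The called genes lie to the right of 0 after injury, except Ccnd1 in IRV against NV at -0.72, and no gene is red in the PJ34 comparisons.

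Within IRP, replicate 2 was the lowest library for 9 of the 10 members and the highest for Ccnd1, while it was the lowest IRP library for 35.3% of all tested genes. The mean of the other 3 IRP libraries was 3.19 times its value for Top2a, 2.54 times for Mcm5, 2.48 times for Mki67 and 2.19 times for Mcm3, and 0.759 times for Ccnd1. Marker genes moved along in this library. The 10 proximal tubule markers summed to 17087 CPM in it and to 8163 to 11186 CPM in the other IRP libraries, the 9 injured tubule markers to 2327 against 3094 to 4256 CPM, the 10 macrophage markers to 400.2 against 720 to 1067 CPM, and the 8 fibroblast markers to 932 against 1740 to 2454 CPM. Replicate 1 was the highest IRP library for 7 of 10 members, and it also had the lowest proximal tubule sum and the highest macrophage sum. The share of all tested genes with replicate 1 highest was not computed, so that count is not a result about the members.

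The same marker lists moved with injury. All 10 macrophage markers were called higher in both injury comparisons, and their sum ranged over 79.4 to 111 CPM in NV, 84.6 to 154 in NP, 546 to 913 in IRV and 400.2 to 1067 in IRP, with no marker at 0 in any group. Of the lymphocyte markers 7 of 11 were tested and 5 rose in each comparison, with 1 lower in IRP against NP; the sum was 53.3 to 86.4 CPM in NV, 55.4 to 64.0 in NP, 224 to 748 in IRV and 175 to 580 in IRP, and Cd79b was at 0 in both uninjured groups. Fibroblast markers rose in 6 of 8 and injured tubule markers in 9 of 9 in each comparison, and proximal tubule markers fell in 9 and 8 of 10. All 5 podocyte markers rose in both, 3 and 4 of 7 endothelium markers rose, and 3 of 6 tested loop and distal tubule markers fell in each. Of 5 collecting duct markers 0 were called in either comparison. In IRP against NP 1 of 3 tested neutrophil markers rose and 2 fell, and 3 of 4 erythrocyte markers fell. Over all tested genes the shares were those given with the first counts, 15.9% higher and 11.1% lower in IRV against NV and 19.6% and 24% in IRP against NP. The part of these cell types in the values of the 10 cell cycle genes was not tested. In whole-kidney RNA, a change in the number of cells of a type and a change in RNA per cell cannot be told apart.

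Other genes of the same steps were followed by lists that leave out the 10 members. Their counts are read against the shares of all tested genes: 15.9% called higher and 11.1% lower in IRV against NV, and 19.6% and 24% in IRP against NP. How many uninjured libraries reached the cutoff of the filter on low counts was counted for the members only. A listed gene kept through the injured libraries had to differ, as stated for Mcm3. Calls of low listed genes, and the list counts that hold them, are therefore a description. Of 15 further G1 entry genes 11 were tested; 3 rose and 0 fell in IRV against NV, with a median log2 difference of 0.23, and 3 rose and 0 fell in IRP against NP, with a median of 0.16. The kinase partners of the D cyclins were among them: Cdk6 at 0.91 ± 0.18 (adjusted p = 0.0017) and Cdk4 at 0.74 ± 0.19 (adjusted p = 0.0091) in vehicle mice, and 0.60 and 0.82 in PJ34 mice (adjusted p = 0.012 and 0.0024). The call of Cdk4 in vehicle mice was lost without IRV replicate 3 (adjusted p = 0.052), and that of Cdk6 in PJ34 mice without NP replicate 1 or 4 (0.062 and 0.073). Myc, a transcription factor of growth signalling, rose in vehicle mice by 1.65 ± 0.56 (adjusted p = 0.035), a call lost in 5 of 8 fits that left out a library (NV replicates 1, 2 and 3, IRV replicates 3 and 4, adjusted p up to 0.13). Myc is one of the low genes, at 0 to 11.3 CPM in shallow and 4.35 to 13.8 CPM in deep libraries. Tfdp1, the partner of E2F factors, rose in PJ34 mice by 0.50 ± 0.18 (adjusted p = 0.033), a call lost in 6 of 8 such fits (NP replicates 1, 2 and 3, IRP replicates 1, 3 and 4), with a value as low as 0.29 (adjusted p = 0.19). The third D cyclin, Ccnd3, was at -0.31 ± 0.14 in vehicle mice (adjusted p = 0.12), and Cdk2 at 0.75 ± 0.30 in PJ34 mice (adjusted p = 0.053).

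Of 47 further replication genes 30 were tested, and 5 rose and 1 fell in vehicle mice (median 0.18), and 4 rose and 2 fell in PJ34 mice (median 0.41). For 30 genes these counts lie near or under the shares of all tested genes, so they are not a result about the list. Mcm7, a subunit of the same helicase ring, rose by 1.12 ± 0.27 (adjusted p = 0.0052) and 1.22 ± 0.26 (adjusted p = 0.0014). Dnmt1, which copies DNA methylation onto new strands, rose by 0.89 and 0.88, and the polymerase subunit Pold1 rose by 1.14 ± 0.35 in vehicle mice (adjusted p = 0.023), a call lost without NV replicate 1, NV replicate 4 or IRV replicate 3 (adjusted p = 0.081 to 0.090). Pole, the catalytic subunit of another polymerase, was lower in IRP than in NP (-1.24 ± 0.32, adjusted p = 0.0054), and it is the 1 tested replication gene for which every deep library lay under every shallow one.

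Of 48 further mitosis genes 27 were tested, and 6 rose and 0 fell in vehicle mice (median 0.39), and 4 rose and 6 fell in PJ34 mice (median -0.00). In PJ34 mice these counts lie near the shares of all tested genes, of which more were called lower there than in vehicle mice. Foxm1, a transcription factor of late cell cycle genes, rose by 2.18 ± 0.64 in vehicle mice (adjusted p = 0.018), a call lost without NV replicate 1 or 4 (adjusted p = 0.050 to 0.062). Foxm1 was low, at 0 to 10.3 CPM in shallow and 3.08 to 6.89 CPM in deep libraries. Ncapd2, a condensin subunit, rose by 1.59 ± 0.42 (adjusted p = 0.010) in vehicle mice, and Smc4, another, by 0.66 and 0.62 in vehicle and PJ34 mice. The phosphatase gene Cdc25b rose by 1.42 and 1.80. Its deep libraries, at 10.6 to 13.4 CPM, all lay above its shallow ones, at 0.85 to 9.12 CPM. Foxm1 and Cdc25b may have been kept by the filter on low counts through the injured libraries, so their calls are a description. Ndc80, a kinetochore gene, and Prc1, a gene of the central spindle, were lower in IRP than in NP, at -2.65 ± 0.60 and -1.11 ± 0.28 (adjusted p = 0.0021 and 0.0044). Ndc80, Nuf2 and Ncapg, 3 of the 6 that fell, are lower in every deep library than in every shallow one. With the library set as a term 0 of the 27 were called lower in either comparison, and Ndc80 stood at 0.21. The kinases Cdk1, Plk1, Aurka and Aurkb were among the 21 mitosis genes that did not pass the filter on low counts.

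Genes that hold the cycle back were followed as well. Of 25 listed, 24 were found and 19 tested. In vehicle mice 6 rose and 1 fell (median 0.23), against 15.9% of all tested genes called higher and 11.1% lower. In PJ34 mice 7 rose and 0 fell (median 0.46), against 19.6% and 24%. Cdkn1a, the inhibitor p21 that p53 induces, rose by 1.78 ± 0.39 (adjusted p = 0.0029) and 2.67 ± 0.44 (adjusted p = 0.00026). Cdkn1c, which encodes another inhibitor of the same family, rose by 1.03 and 0.83, and Btg1, an antiproliferative gene, by 1.17 and 1.13. For Btg1 every deep library, at 63.4 to 80.1 CPM, lay above every shallow one, at 17.3 to 55.5 CPM. Cdkn1b rose under both treatments, by 0.65 in vehicle mice (adjusted p = 0.0050) and 0.84 in PJ34 mice (adjusted p = 0.00054), as did Btg2, by 1.11 (adjusted p = 0.0039) and 0.90 (adjusted p = 0.0065). The interaction was called for 0 genes of any of the 4 lists, and PJ34 against vehicle for 0 in either comparison with edgeR. In IRP against IRV, DESeq2 called 1 mitosis gene lower, and so did edgeR without IRV replicate 3 or 4. With the library set as a term, 4 of the 19 brake genes were called higher in vehicle mice and 1 in PJ34 mice, and on each of the other lists 1 and 0, in a fit that called 7.93% and 2.52% of all tested genes higher. The lists were not tested against each other.

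**Figure D5:**
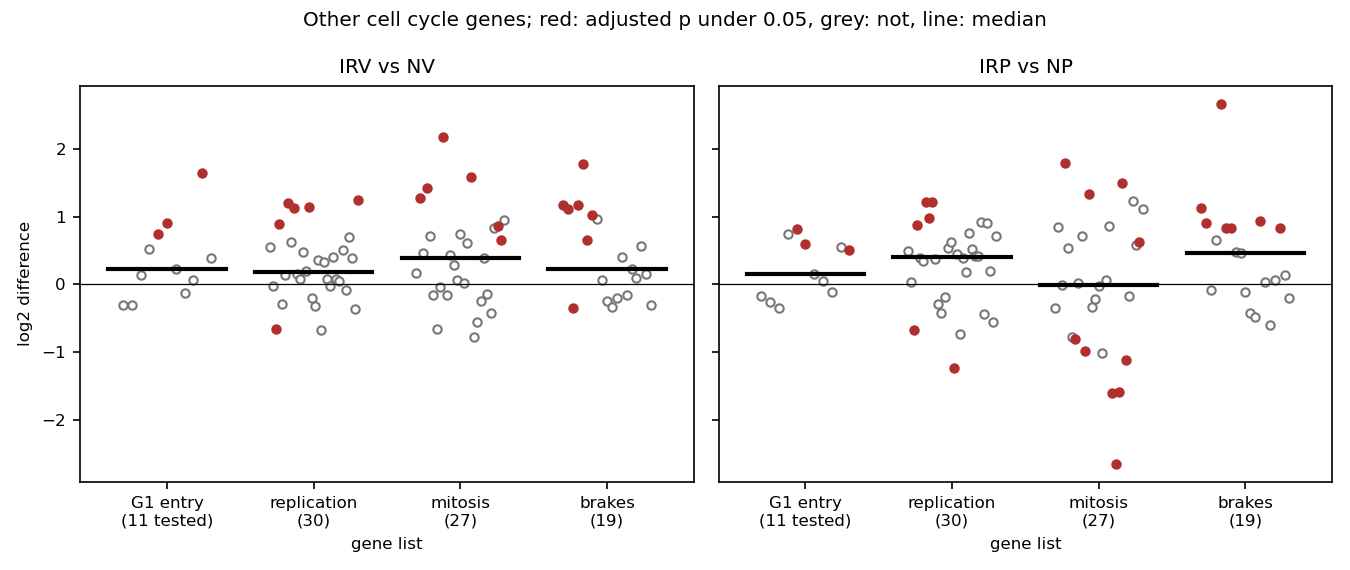
Log2 differences after injury in vehicle and PJ34 mice for tested genes of 4 lists, 11 for G1 entry, 30 for replication, 27 for mitosis and 19 for cell cycle brakes, red where the adjusted p is under 0.05, with a line at each list's median. The mitosis list has 6 red points above 0 in IRV against NV, and 4 above and 6 under 0 in IRP against NP.

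For the member of each role with the highest mean CPM, the genes with the most similar course over the 16 libraries were ranked by the root mean square difference of centred log2 CPM among 11849 candidates. Nearest to Ccnd1 were Trap1 (0.11), Crat (0.12), Slc2a2 (0.12), Lipa (0.12) and Pdhb (0.13). Nearest to Mki67 were Ccl6 (0.27), Otulinl (0.27), Zcchc24 (0.28), Cd93 (0.30) and Colec12 (0.30). Nearest to Mcm6 were Kdelc2 (0.18), Ryk (0.18), Pold3 (0.18), Syne1 (0.18) and Naf1 (0.19). The measure tends to be smaller at high counts, whose counting error is smaller, so the distances describe each ranking and not a difference between the members.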

How the data were processed

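Poly(A) RNA of 16 kidney libraries, 4 in each of 4 groups, was measured. Per the submitters' processing notes, FastQC 0.11.3, Trim Galore 0.6.6, Salmon 1.3.0, DESeq2 1.30.1 and GRCm39 were used. The deposited values are the authors' expected counts per gene, not normalised and already whole numbers. Symbols were matched for 40276 of 40472 IDs. Tests used edgeR 4.0.16 (quasi-likelihood, R 4.3.3) with TMM scaling, filterByExpr at a minimum count of 10 (13614 genes) and the group as the only term, all 16 libraries in 1 fit. The 5 comparisons were adjusted by Benjamini-Hochberg over all tested genes, with a threshold of 0.05. CPM use TMM-scaled totals, and log2 differences carry a standard error (SE). Deep and shallow libraries were split at 3000000 counts. The alternatives were other scalings, no filter, DESeq2 1.42.0, a replicate block, the library set and leaving out each library. Members and lists were chosen with earlier results of these data known. Named genes were all 10 members, up to 4 genes per list with the smallest p in each injury comparison, Cdkn1a, and the 5 nearest genes of 1 member per role. A gene that the rule names is not reported here. Other genes were named after their values were seen: Nuf2, Ncapg, Cdk1, Plk1, Aurka, Aurkb and Cd79b. Among 24 within-group pairs of libraries none agreed within counting noise (lowest chi-square per degree of freedom 1.77). Counts per library limit the precision, and counting error is only part of it.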

Additional observations from a re-analysis of the deposited data

Results flagged for a closer look

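For 4 of the 40 groups of 4 libraries examined (10 genes in 4 groups), the highest or lowest library stood apart from the other 3 by more than Dixon's 95% critical value. Chance gives about 1 in 20. Ccnd1 in IRV had its lowest library, replicate 1, at 66.8 CPM. Ccnd2 in IRV had its lowest, replicate 2, at 24.3 CPM. Pcna in IRP had its lowest, replicate 2, at 20.5 CPM. Top2a in IRV had its highest, replicate 1, at 38.03 CPM.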

How the results depend on the processing

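Of 603 values of single genes under settings that leave no library out, 491 kept their direction and side of the threshold, 52 no longer passed, 16 newly passed and 44 changed sign, of which 1 had passed before (Ndc80 in IRP against NP). Of the 44, 1 passed the threshold with its sign turned. The cause was not tested for any of these changes. With library totals in place of TMM, members called higher were 8 and lower 0 in IRV against NV. Genes called were 5716 higher and 246 lower there (main 2162 and 1511), 7012 and 1778 in IRP against NP (main 2671 and 3264), and 1 and 421 in IRP against IRV. Signs turned for Ccnb1 (0.42), Ccnd3 (0.21), Pole (0.18) and Prc1 (0.36) in IRV against NV. They turned for Ccnd1 (0.37), Mcm5 (0.54) and Ccnd3 (0.41) in IRP against NP, for Mcm2 (0.061), Mcm6 (0.056), Pcna (0.077), Top2a (0.0020) and Mki67 (0.0043) in IRP against IRV, and for Pcna (0.078) in the interaction. With no filter, members called lower in IRV against NV were 0 and genes called lower 600. In IRP against NP 5805 genes were higher and 10928 lower, in IRP against IRV 9 and 1084, and in NP against NV 2 higher. Signs turned for Ccnb1 (0.21), Ccnd3 (0.0052) and Prc1 (0.16) in IRV against NV, for Ccnd1 (0.24), Mcm5 (0.36) and Ccnd3 (0.26) in IRP against NP, for Mcm2 (0.082), Mcm6 (0.070), Pcna (0.097) and Mki67 (0.0014) in IRP against IRV, for Ccnd2 (-0.0064) in NP against NV and for Pcna (0.11) in the interaction. With DESeq2, genes called were 5 higher and 1277 lower in IRP against IRV, 3 and 1 in NP against NV, and 1 and 21 in the interaction. With the library set as a term, members called higher were 3 in IRV against NV and 1 in IRP against NP, with 1080 genes higher and 835 lower, and 343 and 107. Signs turned for Ccnb1 (0.71), Pole (0.19), Ndc80 (0.57) and Prc1 (0.30) in IRV against NV, for Mcm5 (0.21), Ccnb1 (0.35) and Ndc80 (0.21) in IRP against NP, for Pcna (0.010) and Top2a (0.047) in IRP against IRV, for Ccnd2 (-0.0013) in NP against NV and for Pcna (0.016) in the interaction. Among shallow libraries, members called higher in IRV against NV were 2, with 848 genes higher and 881 lower, and signs turned for Ccnb1 (0.70), Pole (0.18), Ndc80 (0.55) and Prc1 (0.29). Among deep libraries Pcna (0.0066) and Top2a (0.041) turned in IRP against IRV. The library set and the fits within sets were chosen with the depths known. A replicate block left members at 5 higher and 1 lower in IRV against NV and 6 and 0 in IRP against NP, with 2075 genes higher and 1600 lower, and 2560 and 3245, and turned the sign of Ccnb1 (0.019) in IRV against NV and Mcm2 (0.022) in IRP against IRV. Same-numbered libraries mostly did not deviate together (r of -0.23 to 0.26 over 24 pairs, 5 over 0.1). These values cannot settle whether the numbers pair libraries, which the labels do not state. Leaving out each library in turn, members called higher ranged from 3 to 5 in IRV against NV and from 4 to 6 in IRP against NP, and lower from 1 to 1 and 0 to 1. The fewest, 3, came without NV replicate 1, 2 or 3. Genes called ranged from 1361 to 2379 higher and 1122 to 2380 lower in IRV against NV, 1972 to 2595 and 2936 to 4104 in IRP against NP, 0 to 13 and 0 to 1451 in IRP against IRV, 0 to 1 and 0 to 0 in NP against NV, and 0 to 5 and 0 to 414 in the interaction. Values that changed sign ranged from -0.36 to 0.26 for Ccnb1 in IRV against NV and -0.37 to 0.077 for Mcm5 in IRP against NP. In IRP against IRV they ranged from -0.12 to 0.11 for Mcm2, -0.18 to 0.077 for Mcm6, -0.061 to 0.081 for Pcna, -0.36 to 0.12 for Top2a and -0.31 to 0.085 for Mki67. In NP against NV they ranged from -0.46 to 0.40 for Ccnb1, -0.13 to 0.18 for Ccnd2, -0.22 to 0.020 for Mcm6 and -0.15 to 0.14 for Pcna. In the interaction they ranged from -0.075 to 0.19 for Mcm6, -0.16 to 0.13 for Pcna, -0.029 to 0.59 for Top2a and -0.10 to 0.30 for Mki67. Depth limits the low genes most: Mcm3 and Ccnb1 rest on 2 to 15 counts in each uninjured library.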
